A study of Rattus norvegicus with 2 samples.

Results

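The tumor necrosis factor (TNF) and lymphotoxin system was examined through 10 genes measured in rat cervical lymph nodes, 6 ligands and 4 receptors. The ligands were Tnf, Lta, Ltb, Tnfsf10, Tnfsf11 and Tnfsf13b, and the receptors were Tnfrsf1a, Tnfrsf1b, Ltbr and Tnfrsf11a. Every noncontrol probe carrying one of these names on the array was taken, whatever its value, which gave 12 probes on 21 spots out of 45598 probes for 36174 named genes.

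Both samples were cervical lymph nodes of male Sprague-Dawley rats, 10 to 12 weeks old, and each was hybridized to 1 single-color 60-base oligonucleotide array. The C array held RNA of control rats and the RS array held RNA of rats under restraint stress. In the study's methods the restrained rats were tied on their backs to a board. The labels give no restraint time, and the text of the study ties its array comparison to the RS30 group, the shortest of its restraint times. The methods describe halothane and a pentobarbital overdose before decapitation for the animals whose nodes went to the arrays. The sources used here do not say how many rats contributed to an array. With 1 array per group there was no spread between animals, so no difference had a test or a replicate check, and every comparison below is between these arrays. Because whole nodes were used, fewer cells of a type and less RNA per cell cannot be told apart.

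TNF is made by activated macrophages, lymphocytes and other cells, is cleaved from the cell surface, and signals through 2 receptors. TNFR1 (Tnfrsf1a) is widely expressed and carries a death domain, whereas TNFR2 (Tnfrsf1b) lacks one and is found mainly on hematopoietic and endothelial cells. Lymphotoxin alpha (Lta) is secreted as a homotrimer that binds the TNF receptors, or joins lymphotoxin beta (Ltb) on the surface of lymphocytes to form the ligand of the lymphotoxin beta receptor (Ltbr), which is carried by stromal and myeloid cells. This pair drives the formation of lymph nodes and maintains their stroma.

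Tnf, Ltb, Tnfsf13b and Tnfsf11 are shown by the probes that read them, because whether Tnf was measured depends on which probe is read, and because these stretches are the ones the values below refer to. All sequences run 5′ to 3′ as the array design gives them. Of the bright Tnf probe only the last 30 bases are shown, with AATAAA, the hexamer of the polyadenylation signal, in capitals. The Tnfsf13b probe is the one whose rn4 coordinates cross an intron.
Tnf, dim probe: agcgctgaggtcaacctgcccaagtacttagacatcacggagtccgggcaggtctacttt
Tnf, bright probe, last 30 bases: tgagagaAATAAAgttcgcttggaaaagaa
Ltb: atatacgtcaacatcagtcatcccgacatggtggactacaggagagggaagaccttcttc
Tnfsf13b, probe across an intron: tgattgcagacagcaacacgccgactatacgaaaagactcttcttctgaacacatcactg
Tnfsf11: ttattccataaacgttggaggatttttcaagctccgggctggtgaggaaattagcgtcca

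Probe levels are given as background-subtracted intensity in the units of the scanner. Differences are log2 RS minus C after each array was scaled to its own 75th percentile, an intensity of 189 for C and 176 for RS. The error beside a difference is the spot error, built from the scanner's own error for each spot, and it covers the measurement of the spot and not the animals. For a bright gene on 1 spot it came to 0.20 on the log2 scale. Each probe has its own response, so levels of different genes were not ranked against each other. A gene was read by its brightest probe and screened when that probe was well above the local background on at least 1 array, which held for 8 of the 10 genes and for 21096 genes on the array. Positions are those of the rn4 build in the array files, and no exon or UTR annotation of that build was used here.

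The ligands of the lymphotoxin pair were lower on the RS array and their receptors, together with the TNF receptors, were higher, whereas the Tnf transcript was level by the only probe that read it above background. Ltb read 1.37-fold lower, Lta 1.35-fold lower and Tnfsf13b, which encodes the B cell survival factor BAFF, 1.34-fold lower. Tnfrsf1a read 1.95-fold higher, Tnfrsf1b 1.69-fold higher and Ltbr 1.35-fold higher. None of the 8 screened genes passed 2-fold, the threshold of the study, in either direction, where 3.46% of all screened genes were higher and 4.28% were lower by at least that much (7.74% either way).

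**Figure D1:**
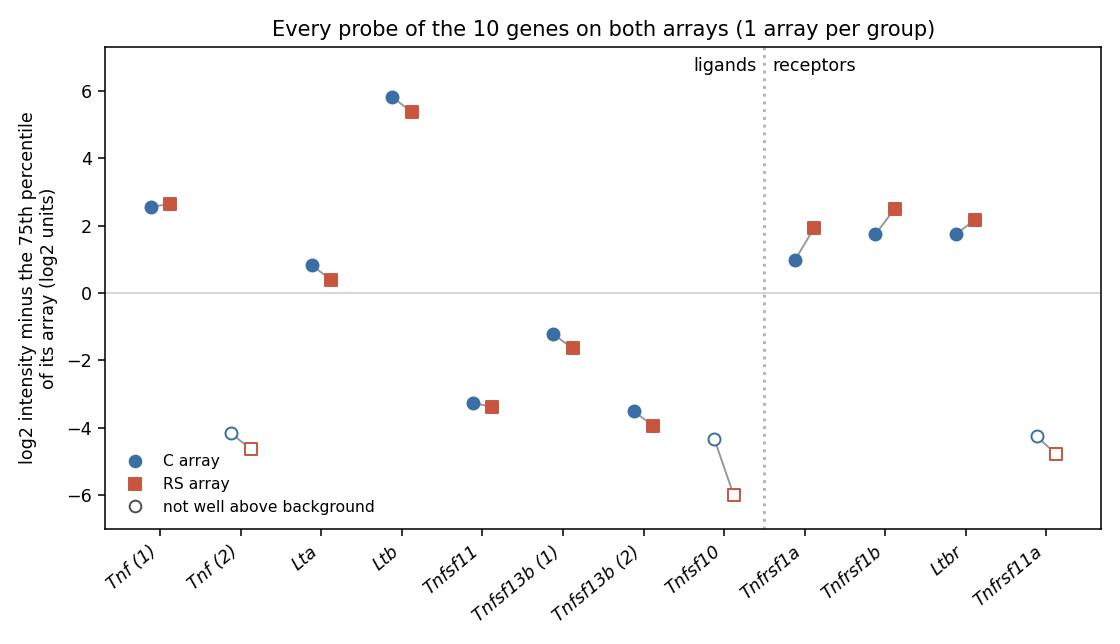
Log2 intensity of each of the 12 probes on the C and the RS array, after each array was scaled as in the text. Open points mark where the probe was not well above background. On this scale Tnfrsf1a went from 0.98 to 1.94 and Ltb from 5.83 to 5.38, while the bright Tnf probe read 2.57 and 2.64.

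Tnf, the inflammatory cytokine, was read by 2 probes on chromosome 20, which disagreed on whether it was measured at all. The bright probe, at chr20:3663558-3663617 on the forward strand, read 1121 on the C array and 1099.6 on the RS array. The dim probe, at chr20:3662706-3662765, read 10.5 and 7.14 and was well above background on neither array. The probes lie 852 bases apart in start and read the same strand. By the bright probe the arrays differed by 0.07 (spot error 0.20), which is within the error of the spot, and the sign turned to -0.03 when the arrays were not normalized and to -0.19 in the mean of both probes. The dim probe gave -0.46 (spot error 0.55), also within its error. A split of this kind was common on the array, where 1117 of 5661 genes with 2 probes (19.7%) had 1 probe above background and 1 not.

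The bright Tnf probe also holds a run of 6 alternating G and A bases, at bases 2 to 7 of the printed stretch. Probes with such runs stood apart on these arrays. The 746 probes with a run of exactly 6 had a median difference of -0.10, with 17.7% of them at least 2-fold lower on the RS array, against a median of 0.03 and 2.31% lower among 24957 probes without a run. The 483 probes with a run of 7 or more had a median of -1.83. The part of this run in the Tnf value was not tested, and with such probes left out Tnf had no probe above background.

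Lta, whose product is the secreted or LTB-bound lymphotoxin alpha, read 336 on the C array and 232 on the RS array at chr20:3659744-3659803. The arrays differed by -0.43 (spot error 0.20). Ltb, the membrane anchor of the lymphotoxin complex, read 10749 and 7321 at chr20:3666709-3666768 on the reverse strand. They differed by -0.46 with the same error. Both lymphotoxin genes were thus lower by a little over 1.96 times the spot error. Of all screened genes, 12.3% were lower by at least as much as Lta and 11.6% by at least as much as Ltb. Among genes of a similar signal these shares were 7.87% and 4.59%. These shares include genes read by probes with alternating runs, and the Lta and Ltb probes hold none. With such probes left out, the genes at least 2-fold lower went from 903 to 498.

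Tnfsf13b was the only ligand with 2 readable probes, and they gave like differences. The brighter probe, at chr16:84825590-84825649, read 81.2 on the C array and 56.5 on the RS array, which is -0.43 on the log2 scale (spot error 0.21). The dimmer probe read 16.5 and 11.5, which is -0.42 (spot error 0.34). Its 60 bases span 4274 bases of chromosome 16, from 84837589 to 84841862, so they cross an intron. The brighter probe passed 1.96 times its error and the dimmer one did not. The 2883 genes with 2 readable probes had a median gap of 0.16 between them, wider than the gap seen here.

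Tnfsf11, which encodes RANKL, the ligand that lymphoid tissue inducer and stromal cells use and that drives osteoclasts, read 19.7 on the C array and 17.0 on the RS array at chr15:59397916-59397975. This difference of -0.11 (spot error 0.29) was within the error and turned to 0.01 with normexp, a background correction that adds an offset and shrinks the differences of dim probes. At this signal a shift of the size seen for Ltb was not detectable. Tnfsf10, which encodes the death ligand TRAIL, gave 9.34 and 2.76 and was not distinguished from background on C or RS. Its probe spans 5045 bases on chromosome 2, from 113214957 to 113220001, and its plain difference was -1.66 (spot error 1.03).

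Tnfrsf1a, the death domain receptor, had the largest difference of the 8 screened genes. It read 372 on the C array and 678 on the RS array on chr4:162185192-162185251. The arrays differed by 0.96 (spot error 0.20), and the interval of 1.96 spot errors ran from 0.56 to 1.36, on both sides of 2-fold. Of all screened genes 3.69% were higher by at least as much, and of those of a similar signal 2.54%. Tnfrsf1b, the receptor without a death domain, read 635 on the C array and 1004 on the RS array at chr5:163666541-163666600 on the reverse strand. The arrays differed by 0.76 (spot error 0.20), and 5.48% of all screened genes were higher by at least as much.

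Ltbr, the receptor for the lymphotoxin complex, was the best measured gene of the 10, since its probe was printed on 10 spots of each array. The probe lies at chr4:161431938-161431997 on the reverse strand. The spots of the C array read from 604 to 662, with a median of 631. The spots of the RS array read from 767 to 841, with a median of 799. No spot of one array overlapped the other, and how many other probes on several spots part in this way was not counted. The arrays differed by 0.43 (spot error 0.06), the smallest error of the 10 genes. Of all screened genes 12.0% were higher by at least as much, and of those of a similar signal 5.56%. The spots of an array are repeats of 1 hybridization, so this tightness says nothing about animals. Tnfrsf11a, which encodes RANK, the receptor of RANKL, gave 9.91 and 6.44 at chr13:12014069-12014128 and was not distinguished from background on C or RS.

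**Figure D2:**
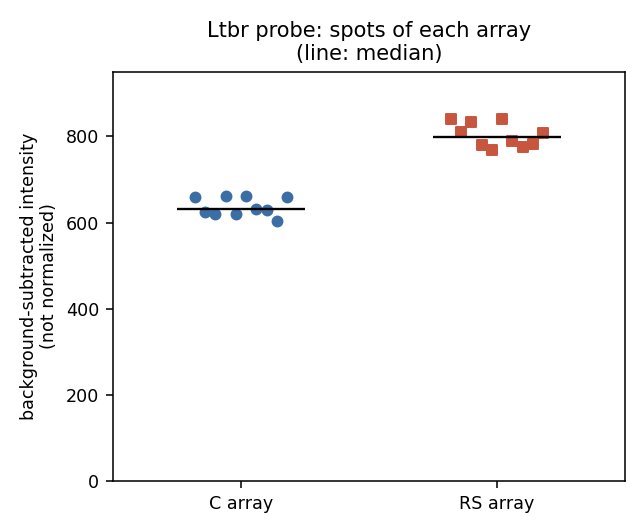
Intensity of each of the 10 Ltbr spots on the C and the RS array, one point per spot. The C spots lie between 604 and 662 and the RS spots between 767 and 841, so the arrays do not overlap.

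Beyond 1.96 times the spot error, 3 of the 8 screened genes were higher, all of them receptors (Tnfrsf1a, Tnfrsf1b and Ltbr), and 3 were lower, all of them ligands (Lta, Ltb and Tnfsf13b). Among all screened genes, those read by probes with alternating runs included, 11.0% were higher by this rule and 10.2% lower. The receptors passed in all 14 settings tried. Several of these could not change them, since each receptor had 1 probe, above background on both arrays and without an alternating run. Tnfsf13b passed narrowly. It did not pass when the arrays were scaled to the median of all probes (-0.40), under quantile normalization (-0.40) or under normexp (-0.22). Under normexp Lta did not pass either (-0.37). The spot error was kept as given above in every setting and was not recomputed for normexp. The 5 screened ligands had a median difference of -0.43, and 4 of them lay below 0. The 3 screened receptors had a median of 0.76, and all lay above 0. All screened genes had a median of 0.02, with 52.1% above 0 and the middle 90% between -0.88 and 0.81. The 8 genes as a whole had a median of -0.02, since the ligands and receptors lay on opposite sides.

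**Figure D3:**
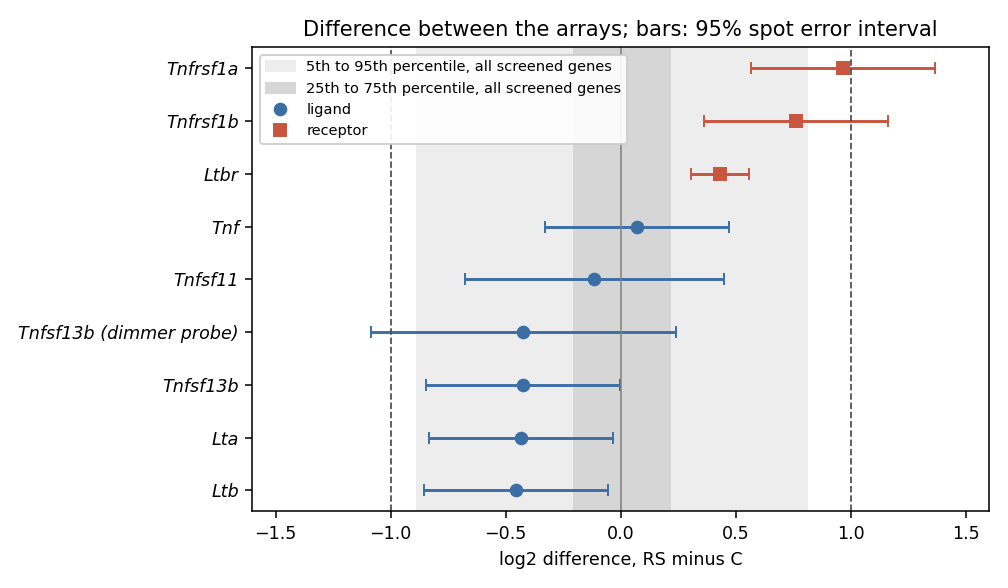
Difference between the arrays, log2 RS minus C, of the 8 screened genes and the dimmer Tnfsf13b probe, with bars of 1.96 times the spot error and the 2-fold threshold as dashed lines; the shaded bands give the spread of all screened genes. The receptors (squares) lie at 0.43 to 0.96 and Lta, Ltb and Tnfsf13b (circles) at -0.46 to -0.42.

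Lta, Tnf and Ltb are neighbors in the class III part of the rat major histocompatibility region on chromosome 20, and their probes fall within 7025 bases. Lta and Ltb differed alike, at -0.43 and -0.46, on either side of the bright Tnf probe at 0.07. Within 60 kb the 2 probes of Lst1, a gene of leukocytes, read -0.50 and -0.52 and passed 1.96 times the spot error of 0.20. Ncr3, an activating NK receptor, at -0.32 (spot error 0.21), and Nfkbil1, at -0.27 (spot error 0.20), did not. Ddx39b, an RNA helicase, at 0.02, and Aif1, a macrophage gene, at 0.06 and 0.02, were level.

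**Figure D4:**
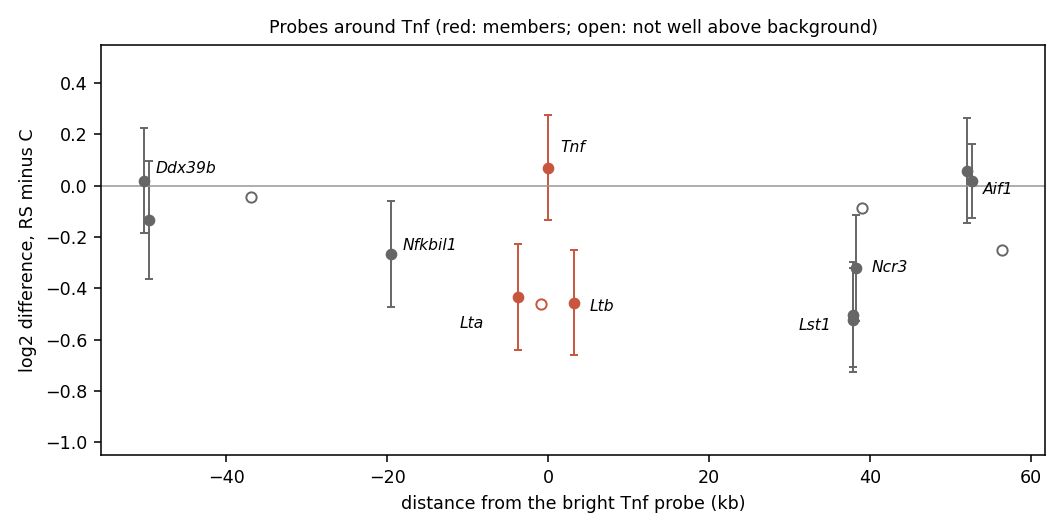
Difference between the arrays, log2 RS minus C, of each probe by its distance in kb from the bright Tnf probe on chromosome 20, with bars of 1 spot error and open points where the probe was not well above background. Lta and Ltb lie below 0 beside the level bright Tnf probe, and Lst1 lies at -0.50 and -0.52.

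The promoters of these genes were read from RefSeq (build GRCr8), from 250 bases before to 50 bases after the gene's start. Of the 10 genes 9 matched, and Tnfrsf11a did not. They were searched for the NF-kB consensus and for TGANTCA, the site of AP-1, on both strands and for TATAAA on the strand of the gene. The NF-kB consensus was found in Lta and Ltb, where 7.51% of all 33469 promoters hold it, and in no other of the 9. TGANTCA was found in Tnfrsf1b alone (7.33% of all promoters), and TATAAA in Lta and Tnf (8.80%). The stretches that hold the matches are printed here with the matches in capitals; in Lta 2 overlapping NF-kB matches form 1 capital run. The stretches shown are Lta at chr20:3623427-3623526 on the plus strand, Ltb at chr20:3634055-3634154 on the minus strand, Tnf at chr20:3626585-3626684 on the plus strand, and Tnfrsf1b at chr5:162387552-162387611 on the minus strand.
Lta: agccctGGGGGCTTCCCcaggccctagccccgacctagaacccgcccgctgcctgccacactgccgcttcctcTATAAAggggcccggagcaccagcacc
Ltb: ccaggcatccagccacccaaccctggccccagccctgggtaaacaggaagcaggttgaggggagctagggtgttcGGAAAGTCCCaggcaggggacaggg
Tnf: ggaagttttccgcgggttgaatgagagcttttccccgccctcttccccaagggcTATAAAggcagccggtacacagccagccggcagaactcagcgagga
Tnfrsf1b: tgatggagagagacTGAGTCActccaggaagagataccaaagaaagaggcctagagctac
The 2 genes with an NF-kB match in this window were both lower on the RS array, as was Tnfsf13b (-0.43), which had no such match. Tnfrsf1b, with a TGANTCA match, was higher, as were Tnfrsf1a (0.96) and Ltbr (0.43) without it. A link between matches and differences was not tested. A match is a run of letters and not a site shown to be bound.

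The genes around the 10 were described through 9 lists of the pathway, which hold 115 other genes, 105 of them screened. Of these, 14 rose and 2 fell by at least 2-fold, with a median difference of 0.14. Of the 14 that rose, 7 came from the list of genes induced by TNF. There 7 of 15 screened genes rose by at least 2-fold, as 3.46% of all screened genes did, and none fell by as much. The median of 0.81 was the value of Csf2, a lower bound because its probe was above background on the RS array only. With plain ratios of the signals the median was 1.15. Cxcl1, a neutrophil chemokine, went from 20.5 to 624 (5.03), and Cxcl2, of the same class, from 27.2 to 345 (3.76). Ccl2, the monocyte chemokine, went from 1160.3 to 14380 (3.73), although its probe holds an alternating run of 6. Ptgs2, the inducible cyclooxygenase, went from 14.6 to 173 (3.67) and Il6, the acute phase cytokine, from 9.99 to 98.6 (3.40). Ccl20 rose by 1.48 and by 1.54 at its other probe, and Ier3, an early response gene, rose by 1.15. With normexp the differences of the dim genes shrank, to 3.12 for Cxcl1, 2.33 for Cxcl2, 1.72 for Ptgs2 and 1.34 for Il6, and Ier3 was under 2-fold at 0.97. The study singled out chemokines of this list on these same arrays, so their direction is not independent evidence. The adhesion molecules Icam1 (0.65) and Vcam1 (0.27) stayed under 2-fold, Tnfaip2 was the lowest at -0.31, and Selp was not above background.

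**Figure D5:**
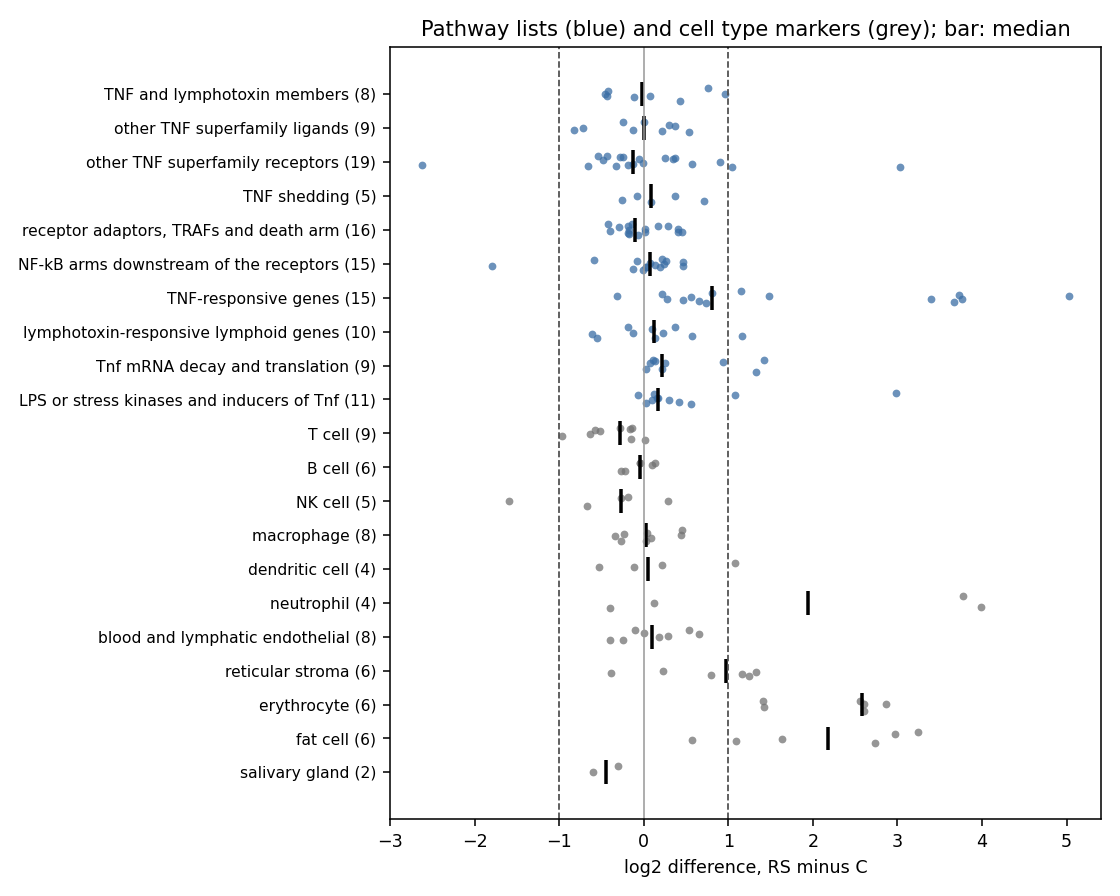
Difference between the arrays, log2 RS minus C, of each screened gene in the pathway lists (blue) and the cell type marker lists (grey), with the number of screened genes in parentheses, a bar at the list's median and dashed lines at 2-fold. TNF-responsive genes have a median of 0.81 and the 8 TNF and lymphotoxin genes a median of -0.02.

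Of 10 screened lymphoid genes that respond to the lymphotoxin receptor, only Pdpn, a stromal glycoprotein, passed 2-fold at 1.16, and its other probe read 0.55. The median was 0.12. Fcer2, the low affinity IgE receptor of B cells, was the lowest at -0.62, and the homeostatic chemokines Ccl19 (-0.56), Ccl21 (-0.19) and Cxcl13 (0.37) lay on both sides of 0. The Ccl19 and Ccl21 probes each hold an alternating run of 6, and the Cxcl13 probe holds none. With such probes left out the median of the list was 0.18.

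Other ligands of the superfamily had no gene past 2-fold among 9 screened, with a median of -0.004. Cd70, the ligand of Cd27, was the lowest at -0.82, and Tnfsf14, which encodes LIGHT, another ligand of Ltbr, was the highest at 0.53, with 47.9 on the C array and 64.7 on the RS array. Among 19 screened other receptors 2 rose and 1 fell by at least 2-fold, with a median of -0.13. Tnfrsf12a, the receptor of TWEAK, rose from 51.6 to 393 (3.03, or 2.08 with normexp), on a probe with an alternating run of 6. Tnfrsf18, which encodes GITR of regulatory and activated T cells, rose from 1309 to 2524 (1.05), though it read 0.95 without normalization between the arrays. Tnfrsf8, which encodes CD30, fell from 669 to 101 (-2.62, or -2.10 with normexp) on a probe with a run of 7, while its other probe was not above background. Of these 19 receptors 7 lay above 0, where all 3 of Tnfrsf1a, Tnfrsf1b and Ltbr did.

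None of the 16 screened adaptors and death arm genes passed 2-fold, from -0.42 for Fadd, the death domain adaptor, to 0.45 for Birc2, a ubiquitin ligase, with a median of -0.10. In the 15 genes of the NF-kB arms the median was 0.08 and only Cyld, a deubiquitinase, passed 2-fold, from 8111 to 2173 (-1.80) on a probe with a run of 9, while its other 3 probes read -0.31, -0.08 and 0.06. The inhibitor Nfkbia read 0.47. All 5 genes of TNF shedding stayed under 2-fold, with a median of 0.08, from -0.26 for Rhbdf2, a partner of the sheddase, to 0.71 for Timp3, its inhibitor, and Adam17, the sheddase itself, read 0.08. Without normalization the medians of the NF-kB arms and of shedding lay below 0, at -0.02 and -0.01.

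All 9 screened genes of Tnf mRNA decay and translation lay above 0, the lowest at 0.02, with a median of 0.22 that was 0.12 without normalization. Khsrp (0.02) and Tia1 (0.11) were within their spot error of 0.20. The other Khsrp probe read -0.06, and the other Tia1 probes read -0.09 and 0.05. Zfp36, which encodes tristetraprolin and destabilizes the Tnf mRNA, rose from 72.6 to 170 (1.33), though it was under 2-fold at 0.84 with normexp. Zfp36l2 rose from 1566 to 3927 (1.43), though its other probes read 0.46 and 0.76. Of 11 screened kinases and inducers, 10 lay above 0, with a median of 0.17. Fos, a subunit of AP-1, was above background on the RS array only, with 11.4 on the C array and 84.3 on the RS array. Its difference of 2.98 on the log2 scale (7.89-fold) was the plain ratio of these signals, and it fell to 1.04 with normexp. Jun, another subunit, rose by 1.07, with 1.41 at its other probe, and was under 2-fold with normexp (0.90), without normalization (0.98) and with the percentile taken over spots (0.99).

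Markers of the node's cell types were read beside these values. T cell markers lay below 0 for 8 of 9 genes, with a median of -0.28, and their summed level, in units of each array's 75th percentile, went from 191 to 169. B cell markers had a median of -0.05 and sums of 81.6 and 82.1, and macrophage markers a median of 0.03 and sums of 31.0 and 29.0. Reticular stroma markers lay above 0 for 5 of 6 genes, with a median of 0.98, and their sum went from 47.2 to 102. Endothelial markers had a median of 0.09 and sums of 152 and 182, most of each from Prox1, which read 23122 and 26283 (0.28). The other Prox1 probe read 244 and 346 (0.60). Dendritic cell markers had a median of 0.05 over 4 screened genes, but their sum went from 39.5 to 80.9, most of it from Cd83, also a marker of activated cells, which rose from 7099 to 13988 (1.08). NK cell markers had a median of -0.27 over 5 genes and sums of 13.8 and 10.4, and Klrb1a, an NK receptor, fell from 70.4 to 21.8 (-1.59). Without normalization the macrophage, dendritic cell and endothelial medians lay below 0, at -0.07, -0.05 and -0.01.

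Markers from outside the lymphoid compartments also differed. All 6 screened erythrocyte markers rose by at least 2-fold, with a median of 2.58 and sums of 52.9 and 317. All 6 screened fat cell markers lay above 0 and 5 of them passed 2-fold, with a median of 2.18 and sums of 33.8 and 89.1. With normexp these medians were 1.90 and 1.40. The neutrophil median was 1.94 over 4 genes, where S100a8 (3.99) and S100a9 (3.78) rose past 2-fold and Csf3r (0.11) and Mmp8 (-0.41) did not. Mpo, Elane and Camp were not above background. That median was 1.04 with normexp, 1.45 with the mean over probes and 0.11 with no filter on background. Of 6 salivary gland markers 4 were not above background, and the others had a median of -0.45. The part of T cells, stroma, fat and blood in the ligand and receptor values was not tested.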

How the data were processed

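RNA of cervical lymph nodes was hybridized to single-color Agilent rat arrays, 1 for C and 1 for RS, both on 1 slide. The authors scanned and extracted them with Agilent Feature Extraction 11.5.1.1, and the deposited intensity is the background-subtracted processed signal. The deposited flags and errors of each spot are Feature Extraction's own. The authors' value table holds log2 values and was used as an alternative. Control spots and outlier spots (489 and 660) were left out, spots of a probe were averaged, and log2 intensity minus each array's 75th percentile over probes was compared (Python 3.11.15, pandas 2.3.3; limma 3.58.1 for normexp). Probes well above background numbered 54.7% and 54.9%. A gene was read by its brightest probe over both arrays, and a probe above background on 1 array gave a lower bound. For Fos this bound equaled the plain ratio of the signals. The scripts were tested on simulated data. No group had replicates, so the number of arrays limits the precision and no test was made.

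The 10 genes and all lists were chosen with earlier results of these data known. Named genes were every member, every gene past 2-fold in a pathway list and, in pathway lists with none, the highest and the lowest gene; further genes, all cell type markers among them, were named after their values were seen. Of the 12 probe accessions 11 matched RefSeq, all to the same symbol.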

Additional observations from a re-analysis of the deposited data

How the results depend on the processing

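No paired analysis was possible because C and RS have 1 array each, so no replicate could be left out. Lta, Ltb and Tnfsf13b stayed below 0 in all 14 settings (-0.53 to -0.37, -0.55 to -0.43 and -0.52 to -0.22), and Tnfrsf1a, Tnfrsf1b and Ltbr above 0 (0.85 to 0.99, 0.66 to 0.79 and 0.33 to 0.46). The settings on the filter, the lower bound and the alternating probes could not change these values. The mean over probes could not change those of genes with 1 probe. Tnf ranged from -0.19, as the mean of its probes, to 0.10 and had no value with alternating A and G probes left out. Tnfsf11 ranged from -0.21 to 0.01. The largest shift of the all-gene median under any setting was -0.10, without normalization.

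With no filter on background 1 of the 10 genes (Tnfsf10) was past 2-fold lower. With the interval of the spot error in place of 2-fold, a rule added after seeing the data, 3 were higher and 3 lower. Over all genes, 730 higher and 903 lower became 234 and 378 with normexp and 1741 and 1905 with no filter. The lower count was 601 when genes had to be above background on both arrays and 498 without the alternating probes, an alternative added after seeing the data. The 14 pathway genes that rose ranged from 11, with normexp, to 16, with no filter. The 2 that fell became 1 with the mean over probes and 0 without those probes. The causes were not tested. Signal over background limits Tnfsf10, Tnfrsf11a, Tnfsf11 and the dim Tnf probe.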
